A study of Homo sapiens with 8 samples.

Results

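The genes described here are 9 members of the clotting and plasminogen systems and of the secreted serine proteases: F10, F3, TFPI, PROS1, PLAU, PLAUR, SERPINE2, PRSS23 and PRSS33. They were taken by symbol from a table of 19411 genes. The set was chosen by function and selected on the measured levels of F10 and PRSS33 in the lines called circPRE2 and circPRE8, where these genes were higher. All values of F10 and PRSS33 are therefore given as a description with no test. For the other 7 genes the rule used no stated value, but they too were chosen with earlier results of these data known.

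Poly(A) RNA came from HCT116, an established human colorectal carcinoma line, here with CRISPR interference (CRISPRi), a method that silences a gene at its promoter. All 4 groups carried CRISPRi. In parental sgControl and parental sgNORAD the parental line received sgControl or a guide to the long noncoding RNA NORAD, and the circPRE2 and circPRE8 lines also received sgNORAD. Each group had 2 libraries. The labels do not say what circPRE2 and circPRE8 are, whether any line is 1 clone, or whether replicate libraries came from separate cultures. A p-value here therefore reflects only how far libraries of the same group lie apart, pooled over the 4 groups and moderated across genes. That spread may be technical. Both circ lines carried the NORAD guide, so their level relative to parental sgNORAD compares lines that share the guide, and their level relative to parental sgControl compares samples that differ in line and guide.

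Blood clotting begins when tissue factor, the membrane protein encoded by F3, binds circulating factor VII, and this complex activates factor X, the protease precursor encoded by F10. TFPI inhibits the tissue factor complex together with activated factor X, and protein S, encoded by PROS1, is a cofactor of TFPI and of activated protein C. Urokinase, encoded by PLAU, converts plasminogen to plasmin while bound to its receptor, encoded by PLAUR, and SERPINE2 encodes a serpin, protease nexin-1, that inhibits thrombin, urokinase and plasmin. PRSS23 and PRSS33 encode secreted trypsin-like proteases, and PRSS33 has been described in macrophages and eosinophils. Carcinoma cells commonly express tissue factor, urokinase and the urokinase receptor, while most circulating clotting factors are made by the liver.

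The library sizes behind the deposited scaling were between 28.393 and 50.282 megareads, the lowest being that of parental sgNORAD replicate 1, and 1 read per kilobase stood for 0.0199 to 0.0352 RPKM (reads per kilobase of gene and megaread). A gene was tested where it reached 0.5 RPKM in at least 2 libraries, which left 11585 genes. F10, F3, TFPI, PROS1, PLAU, PLAUR, SERPINE2 and PRSS23 reached that level in all 8 libraries, while PRSS33 passed only through its 2 circPRE8 libraries. The level of NORAD itself was not analysed here. Of 8 markers of colorectal epithelium, 6 reached 0.5 RPKM, VIL1 reached at most 0.0144 RPKM and CDX1 was listed at 0 in all 8 libraries. The epithelial markers summed to 967 to 1080 RPKM in parental sgControl, parental sgNORAD and circPRE2 and to 1230 to 1250 RPKM in circPRE8. Keratins made up most of that sum, and 3 of the 6 tested markers were higher and 2 lower in circPRE8 than in parental sgNORAD. The 2 lower ones were EPCAM, with means of 112 RPKM in both parental groups, 92.9 RPKM in circPRE2 and 73.5 RPKM in circPRE8, and CDH1, with 12, 11, 10.1 and 5.98 RPKM in that order.

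NORAD binds PUMILIO proteins, which repress messenger RNAs through the motif TGTANATA in the 3′ untranslated region (UTR). In the principal GENCODE 29 transcript of each gene, F3 was the 1 member of 9 whose 3′ UTR held this motif, and it held 2 copies within 1235 bases. The motif was searched on the sense strand only, and 3131 of 11580 tested genes (27.0%) had at least 1 copy. The 2 F3 sites are shown 5′ to 3′ with the motif in capitals. Both are on the minus strand of hg38, at chr1:94529427-94529456 (motif from UTR base 1015) and chr1:94529356-94529385 (motif from UTR base 1086).
F3 site at base 1015: atggttgacatTGTATATAtaattttttaa
F3 site at base 1086: attgttctattTGTATATAttgagataatt
The 3′ UTR of F10 was 12 bases long and that of PRSS33 was 691 bases long, and neither held the motif. A match describes the letters and does not show binding.

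F10 and PRSS33, the members chosen for their level in the circ lines, and F3, the most abundant member, are shown with the RefSeq promoter windows of GRCh38.p14, from 250 bases before to 50 bases after a start site. RefSeq promoters were found for all 9 members. Capitals mark the TATA box TATAAA, the GC box GGGCGG, the CCAAT box, the AP-1 motif TGANTCA or the E-box CACGTG on either strand, none of which overlapped in these windows. The F10 window lies at chr13:113122549-113122848 on the plus strand, the PRSS33 windows at chr16:2787866-2788165 and chr16:2787511-2787810 on the minus strand, and the F3 window at chr1:94541710-94542009 on the minus strand.
F10 promoter: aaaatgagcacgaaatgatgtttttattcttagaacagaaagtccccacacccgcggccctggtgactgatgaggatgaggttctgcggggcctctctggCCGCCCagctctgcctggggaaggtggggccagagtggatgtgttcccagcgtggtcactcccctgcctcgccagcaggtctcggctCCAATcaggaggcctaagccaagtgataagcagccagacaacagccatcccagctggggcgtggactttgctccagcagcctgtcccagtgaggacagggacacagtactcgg
PRSS33 promoter 1: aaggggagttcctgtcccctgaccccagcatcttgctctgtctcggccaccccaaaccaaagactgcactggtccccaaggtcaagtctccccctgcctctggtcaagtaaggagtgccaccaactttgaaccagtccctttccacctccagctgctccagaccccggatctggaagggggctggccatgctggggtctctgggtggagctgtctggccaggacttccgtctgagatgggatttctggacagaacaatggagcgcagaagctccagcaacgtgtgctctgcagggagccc
PRSS33 promoter 2: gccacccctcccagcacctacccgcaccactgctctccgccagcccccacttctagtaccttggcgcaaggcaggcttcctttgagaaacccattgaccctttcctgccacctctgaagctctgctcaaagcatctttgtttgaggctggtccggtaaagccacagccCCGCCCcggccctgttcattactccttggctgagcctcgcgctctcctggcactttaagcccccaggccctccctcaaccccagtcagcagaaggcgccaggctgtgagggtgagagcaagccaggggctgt
F3 promoter: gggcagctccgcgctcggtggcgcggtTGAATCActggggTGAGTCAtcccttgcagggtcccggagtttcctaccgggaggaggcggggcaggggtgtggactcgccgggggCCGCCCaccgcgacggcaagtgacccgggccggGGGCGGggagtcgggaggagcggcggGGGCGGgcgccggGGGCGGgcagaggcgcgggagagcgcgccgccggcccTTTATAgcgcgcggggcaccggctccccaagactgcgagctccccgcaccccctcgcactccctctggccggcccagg
The F10 window held 1 GC box on the opposite strand, 1 CCAAT box and no TATA box, the upstream PRSS33 window held none of the 5 motifs, and the second PRSS33 window held 1 GC box on the opposite strand. The F3 window, with 77.3% G and C against 59.3% in the F10 window, held 4 GC boxes, 2 AP-1 motifs and 1 TATA motif read on the opposite strand. Over 35116 RefSeq promoters of the same length, 45% held the GC box, 34.6% the CCAAT box, 11.5% the TATA box, 7.71% the AP-1 motif and 7.26% the E-box.

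F10 (ENSG00000126218.11, chromosome 13, 113122814 to 113149529, plus strand of hg38) was lowest in parental sgNORAD. It stood at 1.91 and 1.91 RPKM in parental sgControl, 0.688 and 0.585 RPKM in parental sgNORAD, 2.58 and 2.37 RPKM in circPRE2 and 3.6 and 3.57 RPKM in circPRE8, and no 2 groups overlapped. These levels rested on 192 and 202 reads, 46 and 63 reads, 281 and 281 reads and 379 and 415 reads. The mean was 1.91 ± 0.00257 RPKM in parental sgControl and 0.636 ± 0.0725 RPKM in parental sgNORAD (SD, n = 2), 0.365-fold on the log2(RPKM + 0.1) scale. The parental sgNORAD libraries are those against which F10 was seen to be higher in the circ lines, so this difference too is given with no test. F10 was 3.5-fold higher in circPRE2 and 5.02-fold higher in circPRE8 than in parental sgNORAD, and 1.28-fold and 1.83-fold higher than in parental sgControl. These folds depend on the pseudocount. On the log2 scale the differences from parental sgNORAD were 1.809 in circPRE2 and 2.328 in circPRE8, against 1.087 and 1.488 with a pseudocount of 1.

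F3 (ENSG00000117525.14, chromosome 1, 94529225 to 94541800, minus strand) was the most abundant member in every group, as RPKM per length. It stood at 39.1 and 40.2 RPKM in parental sgControl, 26.7 and 25.4 RPKM in parental sgNORAD, 23.2 and 22.4 RPKM in circPRE2 and 29.2 and 28.9 RPKM in circPRE8. The order was parental sgControl, circPRE8, parental sgNORAD and circPRE2, with no overlap between any groups. F3 fell with the NORAD guide in the parental line to 0.658 of control (39.6 ± 0.799 against 26.0 ± 0.899 RPKM, SD, n = 2, limma adjusted p = 1.043e-06). Relative to parental sgNORAD it fell in circPRE2 to 0.875 (adjusted p = 0.006637, limma) and rose 1.11-fold in circPRE8 (adjusted p = 0.00539, limma), so that the lines differed 1.27-fold (adjusted p = 3.921e-05, limma). The circPRE2 call was lost without circPRE2 replicate 2 (adjusted p = 0.0578, limma). F3 stayed below parental sgControl in both lines, at 0.576 in circPRE2 (adjusted p = 8.782e-08, limma) and 0.734 in circPRE8 (adjusted p = 7.219e-06, limma).

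The plasma partners of these genes were near 0. F7, the ligand of tissue factor and the neighbour of F10 at a distance of 2.1 kb, reached at most 0.0236 RPKM and was at 0 in 4 libraries, and F9 was listed at 0 in all 8. F2, the thrombin precursor and substrate of activated factor X, reached at most 0.0763 RPKM, and F5, its cofactor, at most 0.0567 RPKM. Of 15 listed coagulation factor and fibrinogen genes, 14 were found by symbol and 2, F8 and F12, were tested. F12, which starts the contact pathway, fell in circPRE2 to 0.884 (adjusted p = 0.0329) and in circPRE8 to 0.898 (adjusted p = 0.0243) of parental sgNORAD (limma), and F8 passed in no comparison.

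**Figure D1:**
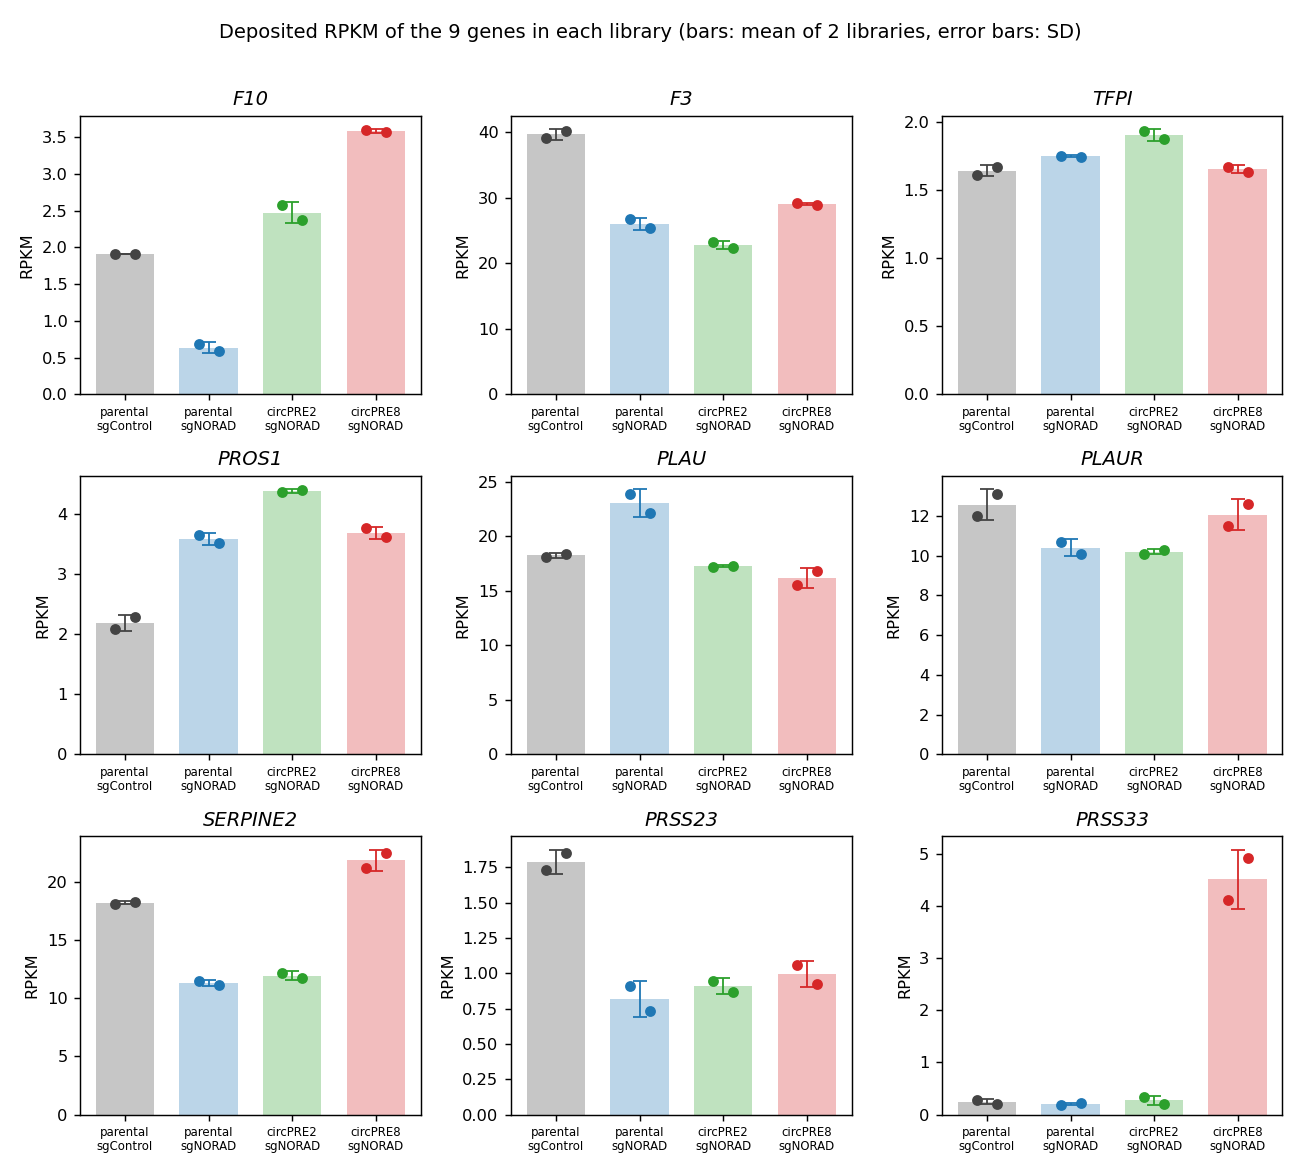
RPKM of the 9 genes in each library (points), with the mean of 2 libraries (bars) and the SD (error bars), by group, each gene on its own vertical scale. F10 is lowest in parental sgNORAD (0.688 and 0.585 RPKM), PRSS33 is above 4 RPKM in circPRE8 alone (4.12 and 4.92 RPKM), and PRSS23 is highest in parental sgControl (1.73 and 1.85 RPKM).

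Of the inhibitors of clotting, TFPI (ENSG00000003436.16, chromosome 2, 187464230 to 187565760, minus strand) varied least. It stood at 1.61 and 1.67 RPKM in parental sgControl, 1.75 and 1.74 RPKM in parental sgNORAD, 1.93 and 1.87 RPKM in circPRE2 and 1.67 and 1.63 RPKM in circPRE8. The circPRE2 libraries were above the other 6. TFPI was 1.15-fold higher in circPRE2 than in parental sgControl at an adjusted p of 0.04997 (limma), a call that was kept in 5 of 17 alternative settings, and it passed in none of the other 5 comparisons. Without the intensity trend it also passed between circPRE8 and circPRE2 (0.873, limma adjusted p = 0.0102).

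PROS1 (ENSG00000184500.15, chromosome 3, 93873033 to 93980003, minus strand) was lowest in parental sgControl. It stood at 2.09 and 2.28 RPKM there, 3.65 and 3.51 RPKM in parental sgNORAD, 4.36 and 4.4 RPKM in circPRE2 and 3.76 and 3.62 RPKM in circPRE8, on 484 to 1204 reads. The circPRE8 and parental sgNORAD libraries overlapped, and the other groups did not. PROS1 rose with the NORAD guide in the parental line 1.61-fold (2.18 ± 0.133 to 3.58 ± 0.0991 RPKM, SD, n = 2, limma adjusted p = 1.47e-05). It rose 1.97-fold in circPRE2 and 1.66-fold in circPRE8 over parental sgControl (limma adjusted p = 9.585e-07 and 7.402e-06). The further rise from parental sgNORAD to circPRE2, 1.22-fold (adjusted p = 0.01084, limma), was lost without circPRE2 replicate 1 (0.0729) or replicate 2 (0.0626), and circPRE8 did not pass against parental sgNORAD (1.03-fold, adjusted p = 0.5919, limma). PROS1 has a near-identical pseudogene copy, and how the authors' counting treated reads shared with it is not given in the sources used here.

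Other anticoagulant genes differed in direction. Of 10 listed, 3 were tested (SERPINA5, PROCR and ANXA5): 1 rose and 2 fell with the NORAD guide (median log2 difference -0.181, against 0.0219 over all genes tested), 2 rose and 0 fell in circPRE2 (median 0.201 against 0.0061), and 2 rose and 1 fell in circPRE8 (median 0.471 against -0.0205), both relative to parental sgNORAD. Over all genes 20.9% were called higher and 16.4% lower with the guide, 10.9% and 7.91% in circPRE2 and 23.6% and 28.6% in circPRE8. The genes of protein C and thrombomodulin, PROC and THBD, reached at most 0.052 and 0.112 RPKM. SERPINA5, the protein C inhibitor, which also inhibits urokinase, had means of 2.61 ± 0.157 RPKM in parental sgControl, 1.05 ± 0.17 RPKM in parental sgNORAD, 1.63 ± 0.0408 RPKM in circPRE2 and 3.19 ± 0.388 RPKM in circPRE8 (SD, n = 2). It fell to 0.424 of control with the NORAD guide (adjusted p = 1.03e-05, limma) and rose over parental sgNORAD 1.5-fold in circPRE2 (adjusted p = 0.00459, limma) and 2.86-fold in circPRE8 (adjusted p = 8.65e-07, limma). PROCR, the endothelial protein C receptor, rose 1.15-fold with the guide (adjusted p = 0.00248, limma), and ANXA5, a phospholipid-binding annexin, fell to 0.882 (adjusted p = 0.003, limma).

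PLAU (ENSG00000122861.16, chromosome 10, 73909177 to 73917497, plus strand) was highest in parental sgNORAD. It stood at 18.1 and 18.4 RPKM in parental sgControl, 23.9 and 22.1 RPKM in parental sgNORAD, 17.2 and 17.3 RPKM in circPRE2 and 15.5 and 16.8 RPKM in circPRE8, and no groups overlapped. PLAU rose 1.26-fold with the NORAD guide in the parental line (18.3 ± 0.203 to 23.0 ± 1.26 RPKM, SD, n = 2, limma adjusted p = 0.0003537). It fell from there to 0.749 in circPRE2 (adjusted p = 0.0003124, limma) and 0.702 in circPRE8 (adjusted p = 6.975e-06, limma). The circ lines did not pass against each other (0.938, adjusted p = 0.1476, limma) and circPRE2 did not pass against parental sgControl (0.944, adjusted p = 0.1945, limma). circPRE8 was at 0.885 of parental sgControl (adjusted p = 0.01442, limma), a call lost without sgControl replicate 1 (0.05) or 2 (0.0726) or circPRE8 replicate 1 (0.132). PLAU shares 916 exon bases with C10orf55 on the opposite strand, whose mean was 0.123 RPKM over the 8 libraries.

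PLAUR (ENSG00000011422.12, chromosome 19, 43646095 to 43670547, minus strand) formed a high and a low pair of groups. It stood at 12 and 13.1 RPKM in parental sgControl and 11.5 and 12.6 RPKM in circPRE8, which overlapped, and at 10.7 and 10.1 RPKM in parental sgNORAD and 10.1 and 10.3 RPKM in circPRE2, which overlapped too. It fell with the NORAD guide to 0.835 of control (12.5 ± 0.782 to 10.4 ± 0.411 RPKM, SD, n = 2, limma adjusted p = 0.003738), and circPRE2 was at 0.816 of control (adjusted p = 0.001531, limma). In circPRE8 it rose 1.15-fold over parental sgNORAD (adjusted p = 0.009456, limma), which was lost without parental sgNORAD replicate 2 (0.0542) or circPRE8 replicate 2 (0.1). It was 1.18-fold higher in circPRE8 than in circPRE2 (adjusted p = 0.005348, limma), which was lost without circPRE8 replicate 2 (0.0605).

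SERPINE2 (ENSG00000135919.13, chromosome 2, 223975112 to 224039319, minus strand) showed the widest difference between the circ lines among the 7 members tested there. It stood at 18.1 and 18.3 RPKM in parental sgControl, 11.5 and 11.1 RPKM in parental sgNORAD, 12.2 and 11.7 RPKM in circPRE2 and 21.2 and 22.5 RPKM in circPRE8. circPRE8 was above all other libraries, and the low groups, parental sgNORAD and circPRE2, lay next to each other without overlap. SERPINE2 fell with the NORAD guide to 0.623 of control (18.2 ± 0.118 to 11.3 ± 0.301 RPKM, SD, n = 2, limma adjusted p = 1.082e-06). It did not pass between circPRE2 and parental sgNORAD (1.06-fold, adjusted p = 0.2151, limma). In circPRE8 it rose 1.92-fold over parental sgNORAD (adjusted p = 3.281e-08, limma), 1.82-fold over circPRE2 (adjusted p = 1.148e-07, limma) and 1.2-fold over parental sgControl (adjusted p = 0.0008111, limma).

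Of the other plasminogen system genes reported here, several were lower with the guide in the parental line and higher in the circ lines than in parental sgNORAD. PLG, the plasminogen gene, reached at most 0.00368 RPKM and was at 0 in 6 libraries. Of 11 genes 6 were tested: 0 rose and 4 fell with the NORAD guide (median log2 difference -0.217, against 0.0219 over all genes tested), 3 rose and 0 fell in circPRE2 over parental sgNORAD (median 0.287 against 0.0061), and 4 rose and 0 fell in circPRE8 over parental sgNORAD (median 0.303 against -0.0205). These comparisons share the parental sgNORAD libraries, and over all genes 20.9% were called higher and 16.4% lower with the guide, 10.9% and 7.91% in circPRE2 and 23.6% and 28.6% in circPRE8. S100A10 and ANXA2 encode the subunits of a plasminogen-binding complex at the cell surface. S100A10 stood at means of 209, 138, 175 and 243 RPKM in parental sgControl, parental sgNORAD, circPRE2 and circPRE8, falling to 0.661 with the guide (adjusted p = 3.09e-06, limma) and rising 1.76-fold from there in circPRE8 (adjusted p = 1.06e-07, limma). ANXA2 stood at 186, 155, 184 and 234 RPKM in the same order, falling to 0.835 (adjusted p = 0.00024, limma) and rising 1.51-fold (adjusted p = 2.33e-07, limma).

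PRSS23 (ENSG00000150687.12, chromosome 11, 86791059 to 86952910, plus strand) was high in parental sgControl alone. It stood at 1.73 and 1.85 RPKM there, 0.908 and 0.73 RPKM in parental sgNORAD, 0.948 and 0.867 RPKM in circPRE2 and 1.06 and 0.927 RPKM in circPRE8. Every library that received the NORAD guide was below both control libraries. PRSS23 fell to 0.484 of control in parental sgNORAD (1.79 ± 0.0804 to 0.819 ± 0.126 RPKM, SD, n = 2, limma adjusted p = 5.939e-05), to 0.533 in circPRE2 (adjusted p = 0.0001327, limma) and to 0.579 in circPRE8 (adjusted p = 0.0003807, limma). None of the 3 groups with the guide passed against another (1.1-fold, 1.2-fold and 1.09-fold, limma adjusted p = 0.4521, 0.08958 and 0.4415), although circPRE8 passed against parental sgNORAD when parental sgNORAD replicate 1 was left out (0.0241). PRSS23 shares 1399 exon bases with FZD4 on the opposite strand, whose mean over the 8 libraries was 1.9 RPKM. Strand use in counting is not given in the sources used here, so reads of these genes cannot be told apart.

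PRSS33 (ENSG00000103355.13, chromosome 16, 2783953 to 2787948, minus strand) was above 0.5 RPKM in circPRE8 alone. It stood at 0.289 and 0.211 RPKM in parental sgControl, 0.183 and 0.218 RPKM in parental sgNORAD, 0.338 and 0.207 RPKM in circPRE2 and 4.12 and 4.92 RPKM in circPRE8. These levels rested on 26 and 20 reads, 11 and 21 reads, 33 and 22 reads and 389 and 512 reads. The first 3 groups overlapped one another and circPRE8 stood apart. With no test, PRSS33 was 15.3-fold higher in circPRE8 than in parental sgNORAD, 12.6-fold higher than in circPRE2 and 13.2-fold higher than in parental sgControl, on the log2(RPKM + 0.1) scale. On that scale the difference from parental sgNORAD was 3.94, against 4.43 with a pseudocount of 0.01 and 2.20 with a pseudocount of 1, so the fold depends on the constant and the levels do not. PRSS33 was 1.22-fold in circPRE2 relative to parental sgNORAD, with overlapping libraries, and 0.862-fold in parental sgNORAD relative to parental sgControl, also overlapping. These low levels were not tested, since PRSS33 passed the filter only through circPRE8.

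Genes of leukocytes and eosinophils, cells in which PRSS33 is known, stayed low. None of 6 markers reached 0.5 RPKM in any library. CLC was listed at 0 in all 8, and PTPRC, the pan-leukocyte marker, reached at most 0.00943 RPKM. EPX, the eosinophil peroxidase gene, stood at 0.241 to 0.361 RPKM over the 8 libraries. Their sum was 0.406 to 0.478 RPKM in parental sgControl, 0.367 RPKM in both parental sgNORAD libraries, 0.358 to 0.418 RPKM in circPRE2 and 0.553 to 0.589 RPKM in circPRE8, where LYZ, the lysozyme gene, averaged 0.278 RPKM. Markers of hepatocytes, the main source of plasma factor X, summed to at most 0.378 RPKM in any library, with FGA and APOB at 0 throughout. SERPINC1 was the highest of them, at 0.12 to 0.252 RPKM. Endothelial markers summed to 0.111 to 0.213 RPKM. Fibroblast markers, of which 3 of 6 reached 0.5 RPKM, summed to at most 3.41 RPKM in parental sgControl and to 4.14 to 4.22, 4.67 to 4.86 and 3.89 to 6.15 RPKM in the other groups, and platelet markers, of which ITGA2B alone reached 0.5 RPKM, to 0.646 to 0.78, 0.634 to 0.694, 0.978 to 1.03 and 0.637 to 0.72 RPKM in the order of groups used above. The part of these cell markers in the members' values was not tested. In bulk RNA, more cells that express a gene and more RNA per cell cannot be told apart.

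With the NORAD guide in the parental line, 37.3% of all genes were called, 20.9% higher and 16.4% lower. Of the 7 members tested, 2 rose (PROS1 and PLAU), 4 fell (F3, PLAUR, SERPINE2 and PRSS23) and TFPI did not pass. The median log2 difference of these 7 members was -0.261 and that of all genes tested was 0.0219. The calls on these 6 members were kept in each of the 17 alternative settings. The balance over all genes depended on the scaling, with 2425 genes higher and 1901 lower as deposited, 2082 and 2282 with RLE (relative log expression, median of ratios) factors, and 2068 and 2393 with upper quartile scaling.

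In circPRE2 against parental sgNORAD, 18.8% of all genes were called, 10.9% higher and 7.91% lower. Of the 7 members tested there, PROS1 rose, F3 and PLAU fell and 4 did not pass. In circPRE8 against parental sgNORAD, 52.2% of all genes were called, 23.6% higher and 28.6% lower. Of the 7 members tested, F3, PLAUR and SERPINE2 rose, PLAU fell and 3 did not pass. The median log2 difference of these 7 members was 0.083 in circPRE2 and 0.157 in circPRE8, against 0.0061 and -0.0205 over all genes.

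Between the circ lines 43.6% of all genes were called, 18% higher and 25.7% lower in circPRE8. Of the 7 members tested, F3, PLAUR and SERPINE2 were higher in circPRE8, PROS1 was lower (0.846, adjusted p = 0.01045, limma) and 3 did not pass. The PROS1 call was lost without circPRE2 replicate 1 (0.0546), circPRE2 replicate 2 (0.0555) or circPRE8 replicate 2 (0.0728). Against parental sgControl, 43% of all genes were called in circPRE2 (25.2% higher, 17.8% lower) and 40.5% in circPRE8 (20% higher, 20.5% lower). In circPRE2, PROS1 and TFPI were higher and F3, PLAUR, SERPINE2 and PRSS23 lower, and PLAU did not pass. In circPRE8, PROS1 and SERPINE2 were higher and F3, PLAU and PRSS23 lower, and TFPI and PLAUR did not pass. In 4 of the 6 comparisons over 40% of all genes were called, so a call on 1 member is a common outcome here.

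Whether more genes were called higher or lower depended on the scaling in 5 of the 6 comparisons. Of the genes called with the NORAD guide in the parental line, 56.1% were higher as deposited, 47.7% with RLE factors and 46.4% with upper quartile scaling. In circPRE2 against parental sgNORAD these shares were 57.8%, 45.6% and 52.5%, and in circPRE8 against parental sgNORAD 45.2%, 51% and 52.6%. They were 41.2%, 54.6% and 52.1% in circPRE8 against circPRE2, and 58.6%, 44.3% and 47.8% in circPRE2 against parental sgControl. No called member changed direction under either scaling, and the largest median shift of all genes under any scaling used was -0.0372 on the log2 scale.

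**Figure D2:**
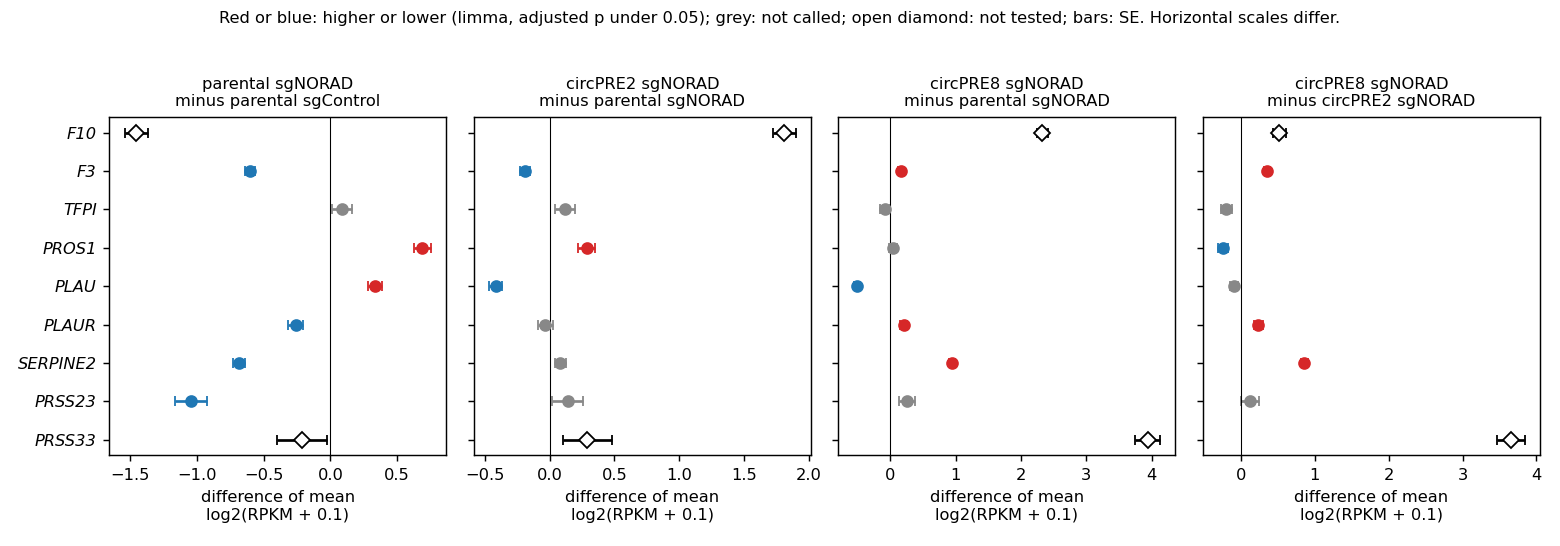
Difference of mean log2(RPKM + 0.1) of the 9 genes in 4 comparisons, with the standard error of the fit as bars and a horizontal scale that differs between panels. Filled red and blue points passed (limma, adjusted p), grey points did not, and open diamonds are F10 and PRSS33, which were not tested. SERPINE2 is at -0.683 with the NORAD guide in the parental line and at 0.944 in circPRE8 against parental sgNORAD, and PLAU is at 0.334 and -0.51.

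Receptors through which clotting proteases and protein S signal were expressed. F2R and F2RL1, protease-activated receptors cleaved by thrombin and by trypsin-like proteases including factor Xa complexes, had means of 7.05 and 55.7 RPKM in parental sgControl. Both rose 1.41-fold with the NORAD guide, to 9.95 and 78.7 RPKM (limma adjusted p = 2.98e-05 and 2.91e-06). F2RL1 fell from there in circPRE8 to 0.799, at 62.9 RPKM (adjusted p = 2.77e-05, limma). AXL, a receptor kinase of the family that binds protein S and GAS6, stood at 31.7, 26.9, 26.5 and 37.4 RPKM in parental sgControl, parental sgNORAD, circPRE2 and circPRE8. It fell to 0.848 with the guide (adjusted p = 0.00114, limma) and rose 1.39-fold in circPRE8 over parental sgNORAD (adjusted p = 3.59e-06, limma). GAS6, its ligand, fell to 0.751 in circPRE2 relative to parental sgNORAD (adjusted p = 0.000594, limma). Of the 8 listed genes 6 were tested, with 2 higher and 2 lower with the guide, 1 higher and 1 lower in circPRE2 and 1 higher and 2 lower in circPRE8 relative to parental sgNORAD (medians -0.093, -0.031 and -0.071, beside 0.0219, 0.0061 and -0.0205 over all genes). The shares of all genes called higher and lower were 20.9% and 16.4%, 10.9% and 7.91%, and 23.6% and 28.6%.

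Factor X and protein S need vitamin K dependent carboxylation, and all 6 listed genes of that cycle and of factor processing and transport were tested. With the NORAD guide 0 rose and 4 fell (median log2 difference -0.144), in circPRE2 against parental sgNORAD 0 of 6 passed (median 0.073), and in circPRE8 against parental sgNORAD 3 rose and 1 fell (median 0.127). All genes tested had medians of 0.0219, 0.0061 and -0.0205 there, with 20.9% called higher and 16.4% lower with the guide, 10.9% and 7.91% in circPRE2 and 23.6% and 28.6% in circPRE8. FURIN, a protease that cleaves propeptides, fell from 27.2 ± 1.56 to 20.8 ± 1.08 RPKM with the guide (SD, n = 2, 0.765, limma adjusted p = 0.000164). MCFD2, part of the receptor that carries factors V and VIII out of the endoplasmic reticulum, fell from 24.2 to 19.8 RPKM (0.822, limma adjusted p = 0.000439) and was at 26.4 RPKM in circPRE8 (1.33-fold over parental sgNORAD, limma adjusted p = 1.4e-05). GGCX, the carboxylase, had means between 3.28 and 3.74 RPKM in the 4 groups. It was higher in circPRE8 than in parental sgNORAD (1.13-fold, adjusted p = 0.0434, limma).

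Other serine protease genes differed in direction in circPRE8, kallikreins among them. Of 26 listed genes 12 were tested: 0 rose and 5 fell with the NORAD guide, 0 of 12 passed in circPRE2 against parental sgNORAD, and 5 rose and 4 fell in circPRE8 against parental sgNORAD (medians 0.025, -0.057 and -0.042). Over all genes the shares called higher and lower in these comparisons were 20.9% and 16.4%, 10.9% and 7.91%, and 23.6% and 28.6%, with medians of 0.0219, 0.0061 and -0.0205. KLK5, a secreted kallikrein, stood at 0.793 ± 0.117, 0.896 ± 0.0883, 0.796 ± 0.206 and 2.72 ± 0.203 RPKM in parental sgControl, parental sgNORAD, circPRE2 and circPRE8 (SD, n = 2), 2.83-fold higher in circPRE8 than in parental sgNORAD (limma adjusted p = 1.1e-05). KLK6, a trypsin-like kallikrein, stood at 26.2, 16.8, 18.1 and 41.1 RPKM, falling to 0.644 with the guide (adjusted p = 6.13e-06, limma) and rising 2.44-fold in circPRE8 (adjusted p = 1.21e-08, limma). KLK8, another kallikrein, fell in circPRE8 to 0.679 of parental sgNORAD (3.42 to 2.31 RPKM, limma adjusted p = 0.000753). PRSS8 and ST14 encode the membrane-bound proteases prostasin and matriptase. PRSS8 fell in circPRE8 from 6.77 to 3.86 RPKM (0.575 of parental sgNORAD, limma adjusted p = 1.04e-06), and ST14 was at 36.5 RPKM there against 60 RPKM in parental sgControl (0.609, limma adjusted p = 8.65e-07).

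Of 15 other protease inhibitor genes 10 were tested: 0 rose and 5 fell with the NORAD guide (median -0.229), 4 rose and 0 fell in circPRE2 over parental sgNORAD (median 0.133), and 6 rose and 1 fell in circPRE8 (median 0.237). Beside them, 20.9% of all genes were called higher and 16.4% lower with the guide (median 0.0219), 10.9% and 7.91% in circPRE2 (median 0.0061), and 23.6% and 28.6% in circPRE8 (median -0.0205). SERPINA1, alpha-1-antitrypsin, stood at 1.14 ± 0.00701, 0.603 ± 0.0303, 1.21 ± 0.134 and 2.34 ± 0.187 RPKM (SD, n = 2), falling to 0.567 with the guide (adjusted p = 0.000142, limma) and rising 1.85-fold in circPRE2 (adjusted p = 0.000318, limma) and 3.46-fold in circPRE8 (adjusted p = 1.72e-07, limma). SLPI, the secretory leukocyte protease inhibitor, stood at 0.554 ± 0.115, 0.121 ± 0.088, 0.369 ± 0.145 and 0.626 ± 0.0183 RPKM (SD, n = 2). Its folds were 0.327 with the guide and 2.16 and 3.42 in circPRE2 and circPRE8 over parental sgNORAD. SLPI passed the filter of 0.5 RPKM only through parental sgControl and circPRE8, where it was high. Its calls, counted above, therefore set these groups against levels below the filter and are given without p-values. SERPINA1 and SLPI, named for the largest changes of this list, were lowest in parental sgNORAD, and SERPINB5, SERPINB6 and SPINT1 were not. The share of all genes lowest in that group was not computed. No test of the members against these lists was made.

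**Figure D3:**
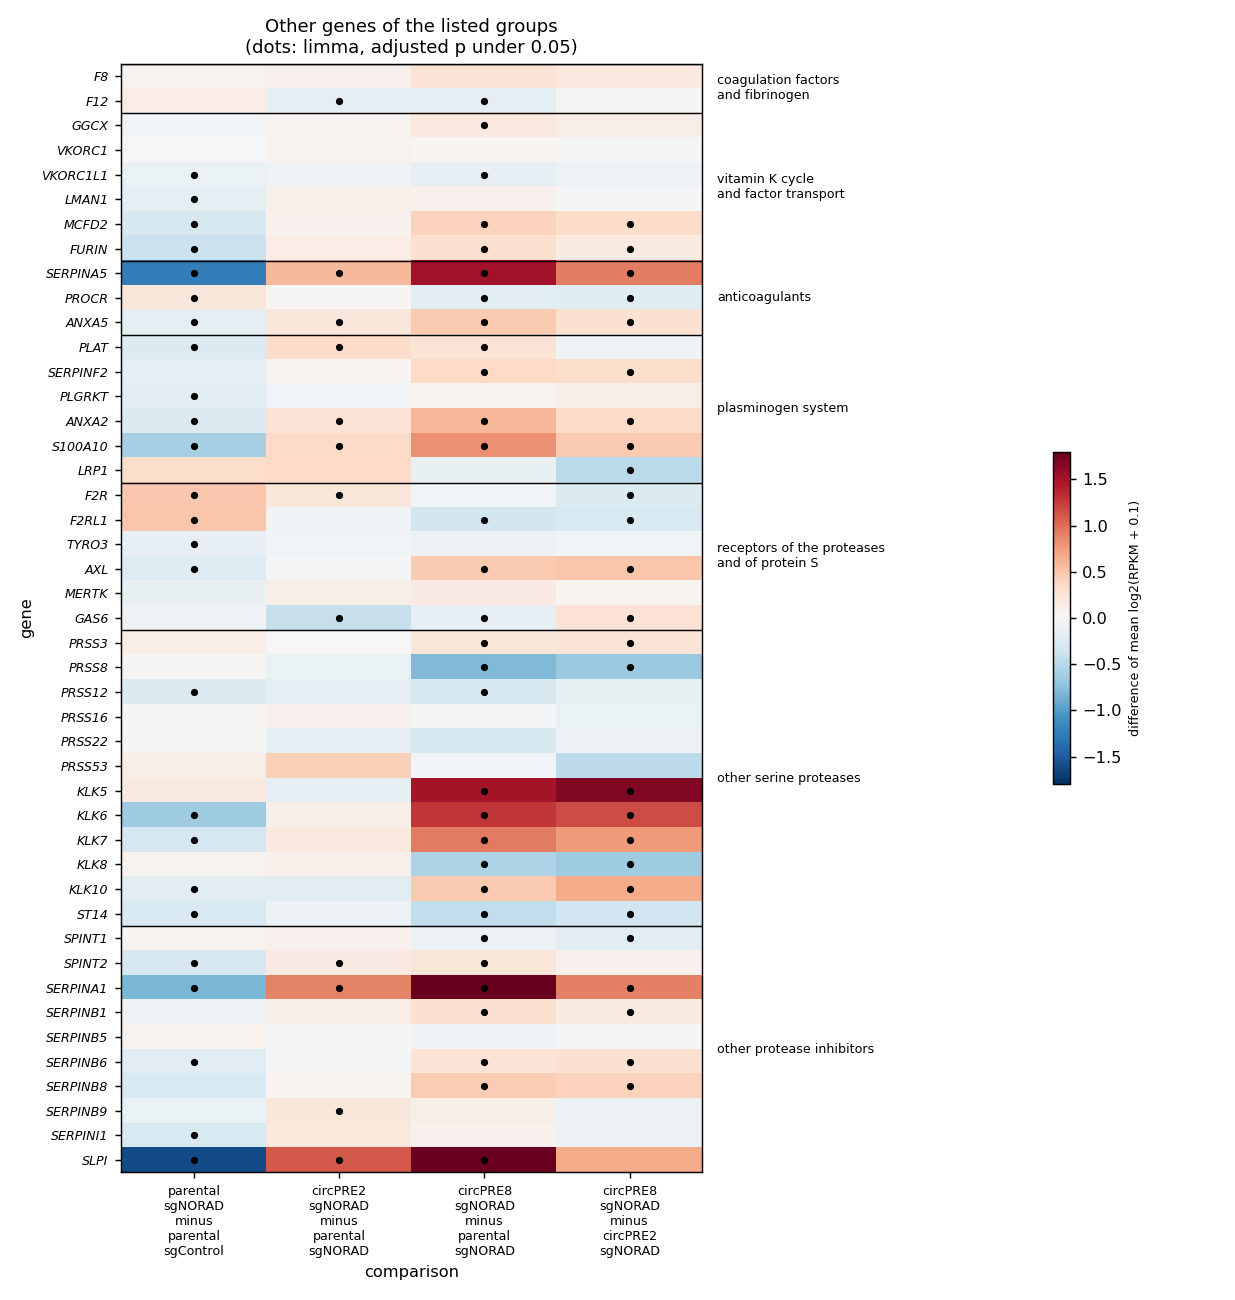
Difference of mean log2(RPKM + 0.1) of the tested genes of 7 lists (rows) in 4 comparisons (columns), red where the first group is higher and blue where it is lower, with dots where limma passed. SERPINA5, SERPINA1 and SLPI are blue with the NORAD guide in the parental line and red in both circ lines against parental sgNORAD, and KLK5 and KLK6 are red in the comparisons of circPRE8.

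The genes around F10 and PRSS33 are given as a description. F10 and PRSS33 were chosen for their higher level in the circ lines, so a larger difference than at their neighbours is built into that choice. Within 200 kb of F10 the table held 7 genes, of which 5 were tested. In circPRE8 against parental sgNORAD, LAMP1, a lysosomal membrane protein gene 147.7 kb away, was higher by 0.29 on the log2 scale (adjusted p = 0.000277, limma) and PCID2, 28 kb away, lower (-0.15, adjusted p = 0.0344, limma), and the other 3 did not pass. Within 200 kb of PRSS33 there were 13 genes and 10 were tested, of which 5 were higher and 2 lower in the same comparison, beside 23.6% and 28.6% of all genes. The closest, ELOB, an elongin subunit gene at 6.7 kb, was higher by 0.32 (adjusted p = 1.64e-05, limma) and SRRM2, a splicing factor gene at 11.4 kb, lower (-0.68, adjusted p = 3.16e-05, limma), while PRSS33 itself was higher by 3.94. The protease genes beside it, PRSS41 at 10.5 kb and PRSS21 at 29.2 kb, had means of at most 0.0253 and 0.127 RPKM in any group, PRSS27 at 63.4 kb of at most 0.273 RPKM, and PRSS22 at 64.8 kb did not pass (3.82 against 4.71 RPKM, adjusted p = 0.0861, limma).

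**Figure D4:**
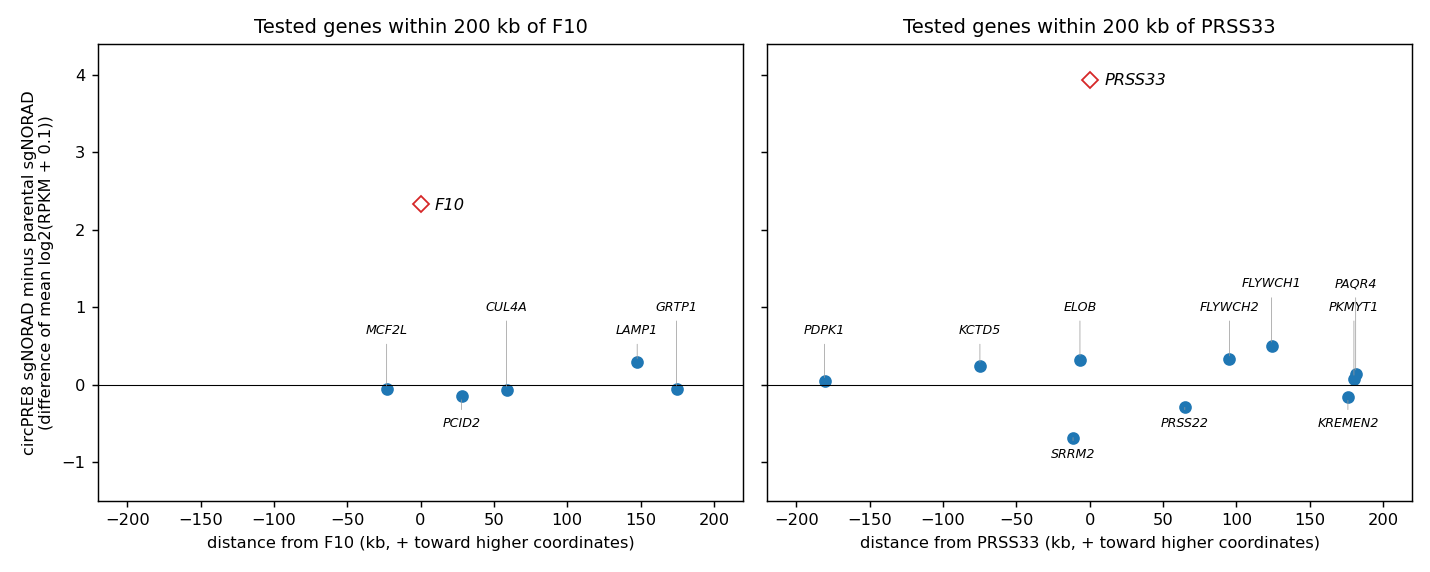
Difference of mean log2(RPKM + 0.1) between circPRE8 and parental sgNORAD for tested genes within 200 kb of F10 (left) and of PRSS33 (right) against their distance in kb. The neighbours (filled points) lie between -0.683 and 0.505. F10 (2.328) and PRSS33 (3.94), drawn as open diamonds, were chosen for their level in the circ lines and lie above them.

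The tested genes whose log2(RPKM + 0.1) over the 8 libraries followed F10 most closely were P4HA2, a collagen prolyl hydroxylase gene (Pearson r = 0.9923), DPYSL2, a cytoskeletal regulator gene (0.9914), and GALNT2, a glycosyltransferase gene (0.9872). Their differences were smaller than those of F10, the gene chosen for its level in the circ lines. P4HA2 averaged 5.18, 4.02, 5.52 and 6.01 RPKM in parental sgControl, parental sgNORAD, circPRE2 and circPRE8. Those closest to PRSS33 were TAF6L, a transcription factor subunit gene (0.9941), ACOT9, a mitochondrial thioesterase gene (0.9935), and PYGB, a glycogen phosphorylase gene (0.9908). ACOT9 averaged 12.3, 11.4, 11.9 and 23.1 RPKM in the same order. These correlations describe 8 libraries in 4 groups of replicates, and for PRSS33 they rest on the 2 circPRE8 libraries standing apart from the other 6.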

How the data were processed

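Poly(A) RNA of 8 HCT116 CRISPRi libraries was analysed in 4 groups of 2, with groups and replicate numbers from the sample titles. The authors deposited 1 table of RPKM values, although its name speaks of counts. The submitters' processing notes name STAR, featureCounts 1.6.0, edgeR 3.24.0 and the build hg38. Annotation release, filters and strand use were not given in the sources used here. The series' text on triplicates and a small RNA kit differs from these libraries and was not used. All value columns were used (0 unmapped).

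Library sizes were recovered from the steps between low RPKM values, 1507 to 1815 of them per library. Each size was chosen so that these values came out as whole reads. That 100% of them were then whole (tolerance 0.1 read) is thus no independent check. The gene lengths needed were known for the 8691 genes whose versioned identifier is in GENCODE 29. Reads are given for F10, PROS1 and PRSS33, the members among these genes, and depth covers counting error only. Coordinates are 1-based, from GENCODE 29, to which 19379 identifiers matched without version.

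With limma 3.58.1 (R 4.3.3), log2(RPKM + 0.1) of all 8 libraries was fitted with a mean for each group and a variance trend on intensity (4 residual degrees of freedom, 11.6 after moderation). Genes needed 0.5 RPKM in at least 2 libraries. P-values, two-sided, were Benjamini-Hochberg adjusted over 11585 genes, with a threshold of 0.05. A fold is the antilog of the difference in mean log2(RPKM + 0.1) and understates changes of low genes. The procedure was tested on simulated data. The 6 comparisons share libraries.

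Members, gene lists and alternatives were chosen with earlier results of these data known. Named genes were all members, up to 2 called genes per direction, list and comparison with the largest fold, partners near 0, the 3 genes most correlated with F10 or PRSS33, and genes within 200 kb of these. Of the plasminogen system list 1 gene is not reported here, and the list's counts leave it out. F10 and PRSS33 were fitted but are reported with no test. Alternatives were 2 pseudocounts, 2 filters, 2 scalings, no trend, only the groups compared, a replicate block and each library left out.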

Additional observations from a re-analysis of the deposited data

How the results depend on the processing

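No called gene among the members changed direction in any alternative setting tried. Of the other member differences, 5 changed sign in 8 cases, each with 1 library left out: PLAUR and PRSS23 in circPRE2 against parental sgNORAD (-0.033 to 0.007 and 0.138 to -0.001 on the log2 scale), TFPI and PLAUR in circPRE8 against parental sgControl, and the untested PRSS33 in circPRE2 against parental sgControl. The scaling turned which direction held more called genes in 5 of 6 comparisons. The numbers of genes called stayed within 1.5 times the reported ones under the pseudocounts, filters, scalings, the fit without trend, the fit of only the groups compared and the replicate block. They moved further only where 1 library was left out. Leaving out 1 library at a time gave 713 to 2359 genes in circPRE2 against parental sgNORAD, with 2173 reported. There were 713 without circPRE2 replicate 1, 1210 without circPRE2 replicate 2 and 1439 without parental sgNORAD replicate 1. Among all members fitted, 2 to 4 passed (4 in the main fit, 2 without circPRE2 replicate 2). These counts take in F10, and PRSS33 where fitted, which are given with no test. Of the 7 members tested, 1 was higher and 2 were lower in the main fit. In circPRE8 against circPRE2, 3 to 6 of all members fitted passed with 1 library left out. The main fit gave 6, and 3 were left without circPRE8 replicate 2. F10, and PRSS33 where fitted, are again counted in these numbers. Of the 7 members tested there, 3 were higher and 1 was lower in the main fit. Leaving out 1 library at a time gave 3168 to 5484 genes in that comparison (5056 reported, lowest without circPRE2 replicate 1). Against parental sgControl it gave 3228 to 5406 genes in circPRE2 (4976 reported, lowest without circPRE2 replicate 1) and 2967 to 5158 in circPRE8 (4692 reported, lowest without circPRE8 replicate 2). A lone remaining library is then assumed to vary like the other groups. Fewer libraries enter these fits, and the cause was not tested further.

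Replicate numbers were shared between groups, but the differences between replicates 1 and 2 correlated between groups at only -0.173 to 0.211 over the tested genes. These correlations were weak and of both signs, and they cannot show whether some libraries shared a batch. The main fit used no pairing. With the replicate block 4421 genes were called with the NORAD guide in the parental line (4326 without it), and the calls on the tested members were kept. In circPRE2 against parental sgControl the TFPI call was lost with the block (adjusted p = 0.0519, limma).

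PRSS33 below 0.5 RPKM rests on 11 to 33 reads a library, and parental sgNORAD replicate 1 is the shallowest library.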
